A study of Mus musculus with 6 samples.

Results

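The Sox factors of neural and neural crest cells are 10 genes of 3 groups: SoxB (Sox1, Sox2, Sox3 and Sox21), SoxC (Sox4, Sox11 and Sox12) and SoxE (Sox8, Sox9 and Sox10). They were taken as every probe set that the platform's table pairs with exactly 1 of these symbols, which gave 31 of the 45037 probe sets of the array. RNA came from whole FVB mouse embryos at 10.5 days of gestation, in 3 control pools and 3 diabetes-exposed pools, each of 3 embryos from different dams, so that a group held 9 embryos and each pool was read on 1 Affymetrix array. The diabetic dams had received 2 injections of 100 mg streptozotocin per kg body weight at 7 to 9 weeks of age, with a glucose level over 250 mg per dl of blood before mating. The control dams were not diabetic, and the labels state no injection for them, so that the drug and the diabetes cannot be told apart by design. According to the methods all embryos looked normal, and a pool hides differences among its embryos. In whole embryos, fewer cells of a type and less RNA per cell cannot be told apart.

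Sox proteins bind the minor groove of DNA through an HMG box and bend it, and most act together with partner factors. Sox1, Sox2 and Sox3 are activators that keep cells of the neural tube in the progenitor state, and Sox21 is a repressor found in the same cells. The SoxC proteins follow them in newly formed neurons, where they switch on neuronal genes, and are also made in mesenchyme. Of the SoxE proteins, Sox9 serves early neural crest and cartilage precursors, Sox10 serves migrating crest, glia and pigment cells, and Sox8 overlaps with both.

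Expression of the SoxB and SoxC genes was lower in the diabetes-exposed pools, and of the SoxE genes that of Sox10 was lower and that of Sox9 at 1 of 2 tested probe sets. Read at its brightest tested probe set, each of the 4 SoxB genes and each of the 3 SoxC genes fell, as did 1 of the 3 SoxE genes, Sox10, and 0 of the 10 rose. Among all 13956 genes read in this way, 19.9% fell and 17.6% rose. A gene is said to have fallen or risen when its adjusted p was under 0.05 in limma across all tested probe sets. In the signals as deposited, a fall of at least 2-fold was seen for 5 of the 10 genes (Sox1, Sox3, Sox21, Sox12 and Sox10), against 6.01% of all genes. This set changed with the scaling of the arrays. After median centring, Sox12 and Sox10 fell short of 2-fold, at log2 fold changes of -0.97 and -0.78. Sox10 stood at -0.76 after quantile and -0.85 after loess normalization. Sox4 and Sox11 then passed 2-fold, at -1.13 and -1.06 (quantile) and -1.15 and -1.02 (loess). The median log2 fold change, exposed over control, was -1.75 for SoxB, -0.90 for SoxC and -0.32 for SoxE, and close to 0 (-0.00025) for all genes. The SoxE median was -0.020 after median centring of the arrays, -0.14 after quantile and -0.18 after loess normalization, -0.16 with the spike ratio described further on as a covariate, -0.68 with the dimmer 50% of probe sets left out, -0.55 with the probe sets of a gene averaged and -0.55 without exposed replicate 3. These groups hold only 3 or 4 genes each, and no test was made between them.

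**Figure D1:**
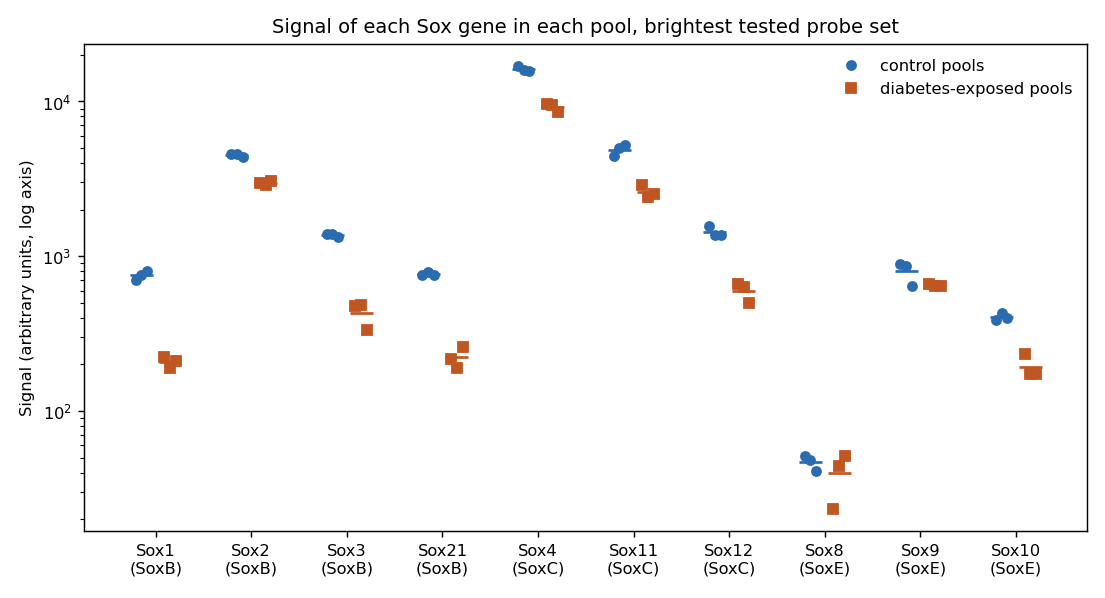
The 10 Sox genes by signal at the brightest tested probe set (vertical axis, log scale, arbitrary units), where a point is a pool and a short bar marks the mean of its group. Control and diabetes-exposed pools did not overlap for the 8 genes that fell, and overlapped for Sox8 and Sox9. Heights of different genes are not comparable, since each probe set has its own response.

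Among all 31 probe sets, 23 were bright enough to be tested, 17 of these fell, 0 rose and 6 were not called. Of all 30025 tested probe sets, 21.8% fell and 14.4% rose. Every exposed pool lay below every control pool for the same number of member probe sets, 17, where 28% of all tested probe sets showed this. With 3 pools against 3, a two-sided exact permutation test cannot give a p below 0.1, and it gave 0.1 for each of the 17.

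Several members move together, so the sequences before their start sites are shown for 4 of the fallen genes, those that between them hold all 3 motifs searched. The reference table of RefSeq promoters (build GRCm38.p6) held 7 of the 10 genes, not Sox3, Sox9 and Sox10. The 250 bases before the start of Sox1 and Sox2 (SoxB) and of Sox4 and Sox12 (SoxC) follow, 5′ to 3′ on the strand of the gene. Capitals mark 3 motifs, searched on both strands: CCAAT, a box of many promoters bound by NF-Y, ATGCAAAT, the octamer of the POU factors that partner with SoxB proteins, and ACAAAG, a core Sox site. The motifs were picked after the sequences had been seen, and no 2 matches overlapped.
Sox1 (chr8:12395269-12395518, + strand): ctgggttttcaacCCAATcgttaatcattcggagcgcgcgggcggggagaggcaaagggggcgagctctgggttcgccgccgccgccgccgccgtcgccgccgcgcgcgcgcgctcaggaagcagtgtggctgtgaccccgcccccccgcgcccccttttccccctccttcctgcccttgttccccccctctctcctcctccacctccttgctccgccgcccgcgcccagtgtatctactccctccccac
Sox2 (chr3:34649745-34649994, + strand): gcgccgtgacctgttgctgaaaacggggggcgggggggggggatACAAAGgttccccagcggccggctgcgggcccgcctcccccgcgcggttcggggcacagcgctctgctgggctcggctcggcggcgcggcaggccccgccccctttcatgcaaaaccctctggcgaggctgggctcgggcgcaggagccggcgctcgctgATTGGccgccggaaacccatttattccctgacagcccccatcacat
Sox4 (chr13:28953700-28953949, - strand): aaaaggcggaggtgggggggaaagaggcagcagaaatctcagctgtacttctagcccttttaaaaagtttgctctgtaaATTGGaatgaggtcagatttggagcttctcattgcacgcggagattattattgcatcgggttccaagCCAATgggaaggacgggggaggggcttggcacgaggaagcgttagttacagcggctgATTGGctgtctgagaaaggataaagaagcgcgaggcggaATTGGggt
Sox12 (chr2:152398047-152398296, - strand): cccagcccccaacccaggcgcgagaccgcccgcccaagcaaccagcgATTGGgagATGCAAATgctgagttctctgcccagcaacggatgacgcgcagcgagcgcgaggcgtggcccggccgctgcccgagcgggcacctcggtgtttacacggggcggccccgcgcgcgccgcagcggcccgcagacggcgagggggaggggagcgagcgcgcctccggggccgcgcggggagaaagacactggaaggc

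A CCAAT box stood in 5 of the 7 promoters (these 4 and Sox11), and in 33.8% of 32851 mouse promoter windows of the same length. Sox4 held 4 of them. The octamer was found before Sox12 alone, 188 to 195 bases from the start, and in 1.6% of all windows. ACAAAG was found before Sox2 alone, and in 16.5% of all windows. None of the 3 motifs was in the windows of Sox21, which fell, and Sox8, which was not called. GC content of the windows was 71.2% for Sox1, 72% for Sox2, 50.8% for Sox4 and 74.4% for Sox12, against a median of 52.4%. A match describes letters only, and the arrays hold no measurement of binding.

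Sox1, the SoxB gene most restricted to neural progenitors, read 703, 754 and 803 in controls against 223, 191 and 210 in pools exposed to diabetes. The exposed pools were far below the controls and close to each other, with means of 753 ± 50.3 and 208 ± 16.0 (SD, n = 3). The log2 fold change was -1.86 with a standard error of 0.13, which is a 3.62-fold fall (adjusted p = 0.00018, limma). The sequence before its start holds 1 CCAAT box. Its dimmer probe set, at 78.2, 58.2 and 5.4 in controls and 5.8 to 9.7 in exposed pools, was below the level tested and varied most among the controls.

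Sox2, which keeps progenitors of the neural tube and pluripotent cells undifferentiated, fell least among the SoxB genes. Its signal was 4593, 4607 and 4405 in controls and 2959, 2871 and 3061 after exposure, and the groups were tight and separate. The log2 fold change was -0.61 with a standard error of 0.075, a fall of 1.53-fold (adjusted p = 0.00085, limma). After median centring of the arrays, which raised the median of all genes by 0.30 on the log2 scale, it was -0.32 with an adjusted p of 0.13. Both Sox1 and Sox2 lie inside longer noncoding genes, Sox1ot and Sox2ot, and the table does not say which transcript a probe set reads.

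Sox3, an X-linked relative of Sox1 and Sox2 in the same progenitors, had signals of 1385, 1393 and 1323 in controls and 481, 484 and 333 in exposed pools. The fall was 3.20-fold, with a log2 fold change of -1.68 and a standard error of 0.15 (adjusted p = 0.00032, limma). A dimmer probe set of Sox3 was not tested, and its values overlapped, at 17.2 to 53.2 in controls and 7.3 to 40.1 after exposure.

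Sox21, the repressor among the SoxB genes, fell at both of its probe sets. At the brighter one the signal was 760, 796 and 757 in controls against 217, 189 and 260 in exposed pools, a 3.50-fold fall (log2 fold change -1.81, standard error 0.14, adjusted p = 0.00020, limma). At the dimmer one it was 374, 392 and 354 against 40.0, 56.0 and 13.1, with a log2 fold change of -3.60 and a standard error of 0.48 (adjusted p = 0.0011). This value was -2.62 with a pseudocount of 32, and -1.83 with the array spike ratio described further on as a covariate, where the call ended (adjusted p = 0.32). The controls thus stayed within a narrow range at both probe sets, and the size of the fall differed with the probe set read. A predicted gene, Gm4675, overlaps Sox21.

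Within an array, a ratio of 2 genes does not depend on a single scaling factor of that array, so the SoxB genes can be set against Sox2. It does depend on scalings that vary with brightness. As deposited, the log2 fold changes of Sox1 and Sox2 were -1.86 and -0.61. They were -1.59 and -0.77 after quantile normalization, and -1.65 and -0.74 after loess normalization. The ratios that follow are of the signals as deposited. Relative to the control mean of the same ratio, Sox1 over Sox2 changed by -1.14, -1.32 and -1.27 on the log2 scale in the 3 exposed pools, and by -0.12, -0.019 and 0.14 in the controls. Sox21 over Sox2 changed by -1.20 on average and Sox3 over Sox2 by -1.07, also without overlap. Among 6 such pairs, chosen after the values were seen, 5 did not overlap, with a two-sided exact permutation p of 0.1 each, the smallest possible, and 0.12 after Benjamini-Hochberg adjustment. In the signals as deposited, Sox1, Sox3 and Sox21 were thus lower against Sox2 in each exposed pool than in any control pool.

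Sox4, the SoxC gene shared by newborn neurons, mesenchyme and the outflow tract of the heart, fell at 2 of its 5 tested probe sets. At the brightest the signal was 16910, 15916 and 15772 in controls and 9673, 9481 and 8499 in exposed pools. That is a 1.76-fold fall, with a log2 fold change of -0.82 and a standard error of 0.080 (adjusted p = 0.00042, limma). At the second, 1449370_at, the controls read 1264, 1324 and 394 and the exposed pools 105, 200 and 162 (log2 fold change -2.53, standard error 0.45, adjusted p = 0.0032).

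At 1419155_a_at and 1419156_at, 2 more probe sets of Sox4, control replicate 3 lay among the exposed pools at the former and below each of them at the latter. The former read 882, 806 and 207 in controls against 295, 191 and 139, and the latter read 647, 541 and 106 against 250, 124 and 158, with adjusted p of 0.065 and 0.25. Without control replicate 3 both fell, with log2 fold changes of -2.09 and -1.80 (adjusted p = 0.0028 and 0.0041). The remaining tested probe set, 1419157_at, stood at -0.36 with an adjusted p of 0.56, and 3 further ones were too dim to be tested, with signals between 3.3 and 59.6. A predicted gene, Gm46405, overlaps Sox4 in the reference. Control replicate 3 was the lowest control at 18 of the 23 tested member probe sets. It was at least 1 log2 unit under the mean of the other controls at 4, which are 3 of Sox4 and 1 of Sox11. The share of all tested probe sets where it was the lowest control is not given here. Its array had the lowest median signal among the controls, 82.5 against 103 and 99.9. It also had the highest spike ratio among them, 2.52 against 2.10 and 2.07 (described further on).

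Sox11, which acts with Sox4 in postmitotic neurons, fell at all of its 6 probe sets, with log2 fold changes from -3.96 to -0.65. At the brightest the signal was 4412, 5027 and 5206 in controls and 2882, 2431 and 2535 after exposure, a 1.87-fold fall (log2 fold change -0.90, standard error 0.10, adjusted p = 0.00064, limma). The largest fall was at the dimmest, 1431225_at, with 1693, 1495 and 505 in controls and 85.9, 62.6 and 62.5 in exposed pools (log2 fold change -3.96, standard error 0.41). Control replicate 3 was again the lowest control there, at -1.66 log2 units against the mean of the other 2, and yet far above the exposed pools. Between these, 1429372_at read 3088, 2829 and 2676 in controls and 1348, 1271 and 1279 after exposure (log2 fold change -1.14, adjusted p = 0.00020), with close agreement in each group. The log2 fold changes of 1453125_at and 1436790_a_at were -1.27 and -1.50 (adjusted p = 0.0046 and 0.00078). The smallest fall, -0.65, was at a probe set whose name ends in _s_at, which marks probes that may bind several transcripts, and its adjusted p was 0.11 after median centring.

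**Figure D2:**
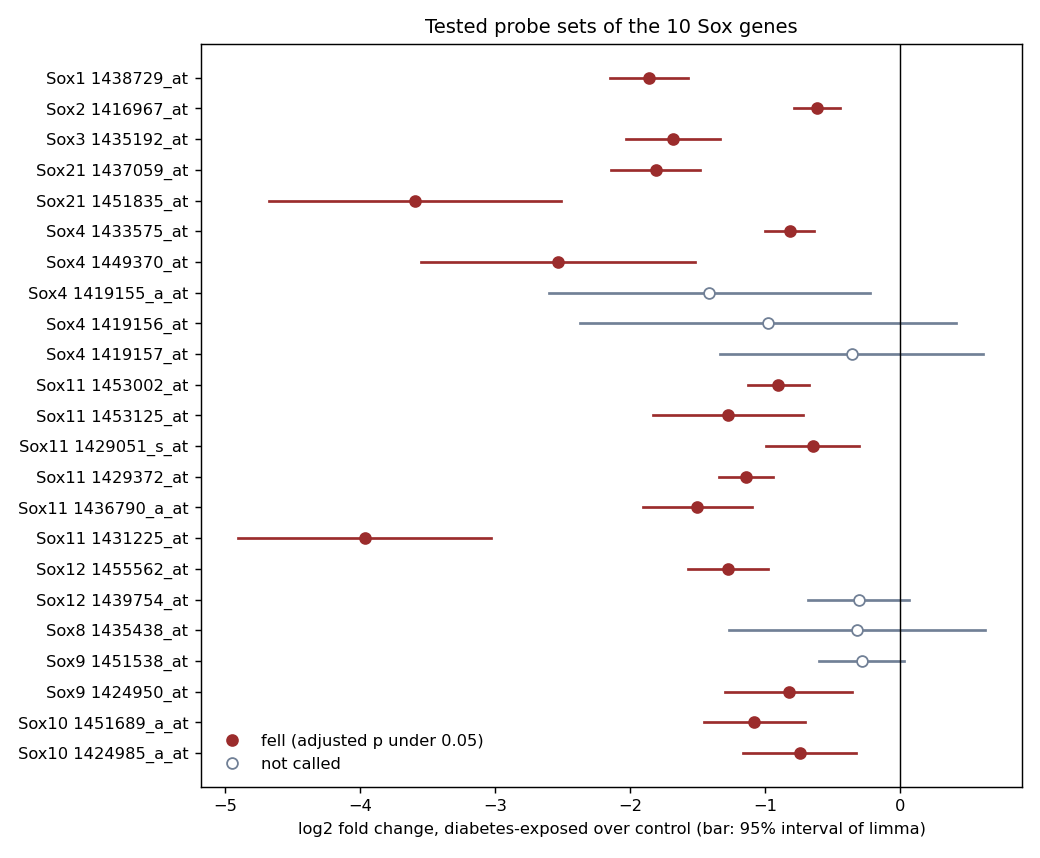
Log2 fold change, diabetes-exposed over control (horizontal axis), with the 95% interval of limma, for the 23 tested probe sets of the 10 Sox genes, ordered by gene. Filled points fell. All 23 lie below 0, and the spread within Sox4 (-2.53 to -0.36) and Sox11 (-3.96 to -0.65) is as wide as that between genes.

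Sox12, the SoxC gene with the weakest activating domain, fell at its brightest probe set from 1566, 1372 and 1366 to 661, 632 and 500. The fall was 2.41-fold, with a log2 fold change of -1.27 and a standard error of 0.13 (adjusted p = 0.00049, limma). At the second tested probe set the groups overlapped, at 334, 327 and 403 in controls and 343, 259 and 262 after exposure (log2 fold change -0.31, 95% interval -0.68 to 0.071, adjusted p = 0.19). Another probe set of Sox12, with signals of 1.9 to 7.6, was not tested. Relative to Sox4 in the same arrays, with signals as deposited, Sox12 changed by -0.46 with no overlap, and Sox11 by -0.085 with overlap (exact permutation p = 0.5). The difference between Sox12 and Sox4 was not kept under other scalings. Their log2 fold changes were both -1.13 after quantile normalization, and -1.18 and -1.15 after loess normalization.

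Sox10, the factor of migrating crest, glia and pigment cells, fell at both tested probe sets. At the brighter one the signal was 387, 429 and 401 in controls and 234, 174 and 174 in exposed pools, a 2.11-fold fall (log2 fold change -1.08, standard error 0.16, adjusted p = 0.0019, limma). At the other it was 220, 254 and 240 against 172, 133 and 126 (log2 fold change -0.74, adjusted p = 0.014). That second call ended after median centring (adjusted p = 0.13), quantile normalization (0.13) and loess normalization (0.059), and without control replicate 2 (0.060). A further one, too dim to be tested, read 81.2, 64.2 and 27.1 against 2.7, 7.4 and 5.9.

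Sox9, which drives early crest and the cartilage programme, gave different answers at its 2 tested probe sets, both of which the platform table traces to the same sequence record. At the brighter one the signal was 893, 862 and 644 in controls and 666, 641 and 645 after exposure, so that control replicate 3 read as low as the exposed ones (log2 fold change -0.28, 95% interval -0.60 to 0.033, adjusted p = 0.15, limma). Without control replicate 3 it stood at -0.43 and was called (adjusted p = 0.020). At the other it was 638, 702 and 586 against 263, 474 and 379, a 1.77-fold fall (log2 fold change -0.82, standard error 0.21, adjusted p = 0.014). This call ended without control replicate 2 (adjusted p = 0.055) and after median centring (0.060), which also put the brighter probe set at 0.015. A further one was too dim to be tested, with 3.4, 7.0 and 35.1 in controls and 27.9, 42.5 and 54.8 after exposure.

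The 1 probe set of Sox8, which shares many sites with Sox9 and Sox10, was dim, at 51.1, 48.5 and 41.2 in controls and 23.2, 44.2 and 51.4 in exposed pools. The groups overlapped, and the log2 fold change of -0.32 had a 95% interval from -1.27 to 0.63, so that a fall of the size seen in Sox10 was not detectable at this signal. At the brightest probe sets, Sox10 over Sox9 changed by -0.80 within the arrays, with no overlap between the groups. This depended on the probe sets read, since at the second tested ones Sox10 stood at -0.74 and Sox9 at -0.82.

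Exposed replicates 1 and 3 stood apart in a control of the arrays themselves. Poly-A spikes, bacterial transcripts added to the RNA, had a ratio of signal at the 3' end to signal in the middle of 2.07 to 2.52 in the controls, and of 6.56, 3.47 and 7.00 in exposed replicates 1, 2 and 3. Exposed replicate 2 had the ratio nearest to the controls. At the brightest tested probe sets it was the lowest exposed pool for 4 of the 8 fallen genes (Sox1, Sox2, Sox21 and Sox11). It was in the middle for 3 (Sox4, Sox12 and Sox10) and the highest for 1 (Sox3). Its place differed at the further probe sets of these genes that fell. It was the highest at the second of Sox21, the second of Sox4 and 1436790_a_at of Sox11. The second of Sox10 and 1453125_at and 1431225_at of Sox11 had it in the middle. At 1429051_s_at and 1429372_at of Sox11 it was the lowest. With replicates 1 and 3 left out together, 1 exposed pool was set against 3 controls, and it was assumed to vary as the controls do, since it has no spread of its own. In that fit 8 genes and 15 probe sets fell, where 12.1% of all tested probe sets fell, and the calls lost were those of the second Sox4 probe set (adjusted p = 0.065) and the second Sox9 probe set (0.12).

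With the spike ratio as a covariate, 5 genes fell, with log2 fold changes of -2.12 for Sox1, -2.22 for Sox21, -1.12 for Sox11, -0.70 for Sox4 and -0.68 for Sox2 and adjusted p from 0.015 to 0.046. Of the 23 tested probe sets 6 fell, where 1.11% of all tested probe sets fell in that fit. Sox3 stood at -1.27 (adjusted p = 0.076), Sox12 at -1.03 (0.10) and Sox10 at -1.29 (0.13). The spike ratio was higher in each exposed pool than in any control pool, so this fit can separate it from the exposure only poorly. Standard errors were larger here, at 0.28 for Sox3 and 0.34 for Sox10, against 0.15 and 0.16 without the covariate. At further probe sets of genes that fell, 1449370_at of Sox4 stood at -1.24 (adjusted p = 0.54), the second of Sox10 at -0.89 (0.34), and 4 of Sox11 between -3.63 and -0.77 (0.094 to 0.51). The second probe set of Sox9 went from -0.82 to -0.084.

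**Figure D3:**
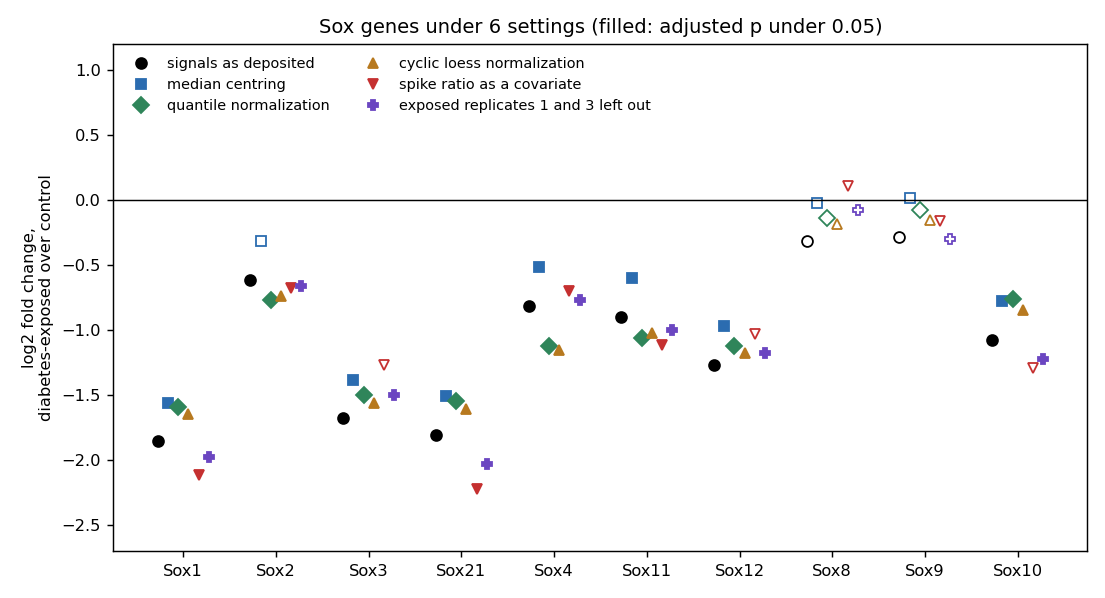
Log2 fold change, diabetes-exposed over control (vertical axis), of the 10 Sox genes at the brightest tested probe set under 6 settings, with filled symbols where the adjusted p was under 0.05. Sox1, Sox21, Sox4 and Sox11 are filled under each of the 6, Sox2 under each but median centring, and Sox8 and Sox9 under 0 of them.

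Genes that work with or under the Sox factors are given next from short lists, each read at the brightest tested probe set. Of 14 SoxB partners and progenitor genes, 6 fell and 1 rose, and the median of their log2 fold changes was -0.36. As above, 19.9% of all genes fell and 17.6% rose, and the counts of this and the other lists stand beside those shares. Pou3f3, a POU partner of Sox2, fell from 2343, 2337 and 2212 to 748, 815 and 747 (log2 fold change -1.58, adjusted p = 0.00013, limma). Pou3f1, Pax6, Nes, Msi1, an RNA-binding protein of progenitors, and Notch1 also fell, by 0.76 to 1.87. The intermediate filament gene Vim stood at -0.020, Cdh2 at -0.067, Pou3f2 at -0.089 and Pou3f4 at -0.052, with adjusted p from 0.55 to 0.87. The gene that rose, by 0.34, was Fabp7, a lipid carrier of radial glia, and its adjusted p was 0.41 after quantile normalization, 0.25 after loess normalization and 0.14 without control replicate 1.

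Of 10 SoxC targets and newborn neuron genes, 6 fell and 1 rose, with a median of -0.39. Pou4f1, a factor of sensory neurons, fell from 230, 310 and 266 to 59.6, 45.9 and 59.5, a 4.89-fold fall. Elavl3, an RNA-binding protein of neurons, fell by 1.48 and Dcx, a microtubule protein of migrating neurons, by 0.76 on the log2 scale. Tubb3, a neuronal tubulin, and Map2, which are known to respond to SoxC, stood at -0.22 (adjusted p = 0.17) and -0.087 (0.58). Tead2, a direct target, fell by 0.33. Isl1, a factor of motor and sensory neurons and of heart precursors, rose by 0.50, and its adjusted p was 0.14 with exposed replicates 1 and 3 left out.

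Of 12 measured genes of crest, glia and pigment cells, in which the SoxE factors act, 4 fell and 1 rose (19.9% and 17.6% of all genes), with a median of -0.031. Ngfr, a neurotrophin receptor of crest, fell 2.26-fold from 910, 881 and 718 to 347, 428 and 335. Erbb3, the neuregulin receptor of Schwann cell precursors, fell by 0.56, and its adjusted p was 0.24 after median centring and 0.071 after quantile normalization. Foxd3, a factor of early crest, fell by 1.17, but its call ended without control replicate 1 (adjusted p = 0.11), control replicate 2 (0.094), exposed replicate 2 (0.051) or exposed replicate 3 (0.090). Ret, a receptor of enteric crest, fell by 0.75. Mitf, Dct and Ednrb, genes of pigment cells, stood at 0.43 (adjusted p = 0.075), 0.038 (0.91) and 0.0025 (0.99). The crest factors Pax3, Twist1, Tfap2b and Tfap2a were not called either. They stood at 0.084 (adjusted p = 0.66), -0.064 (0.72), 0.066 (0.73) and -0.22 (0.18). Snai2, a factor of crest emigration, rose by 0.76, from 2189 to 2421 in controls to 3167 to 4403 after exposure. It was read at a probe set whose name ends in _x_at, which marks probes that may also bind other transcripts.

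Of 8 tested cartilage genes under Sox9, 3 fell and 0 rose, with a median of -0.72, and 4 more were too dim to test. Col2a1, type II collagen, fell 5.01-fold from 3556, 3889 and 3508 to 702, 1012 and 543. Col11a1, a fibril collagen, fell by 0.96 on the log2 scale. Col9a3 read 105, 99.3 and 79.9 in controls and 18.2, 12.8 and 13.4 after exposure, where the exposed pools lay under the mean signal of 26.7 needed for a test, so that it was tested through its controls. Its log2 fold change of -2.69 became -1.43 with a pseudocount of 32, and it was left out with the dimmer 50% of probe sets. Col9a1 stood at -0.14 (adjusted p = 0.24). Of 6 other tested Sox genes 1 fell, Sox13, a SoxD gene, from 890, 919 and 1038 to 490, 444 and 394 (log2 fold change -1.10, adjusted p = 0.00067, limma). Sox5 and Sox6, its relatives, stood at -0.12 and 0.19 (Sox6 was called higher after median centring and after quantile normalization, with adjusted p of 0.042 and 0.028), and the endothelial and endodermal Sox7, Sox17 and Sox18 at -0.32, -0.36 and -0.17, with adjusted p from 0.064 to 0.60. Sox7 was called lower without exposed replicate 2, at -0.40 (adjusted p = 0.040). Sox6 and Sox17, like Snai2, were read at probe sets whose names end in _x_at. With the spike ratio as covariate, Pou3f3, Notch1, Msi1, Pou4f1 and Col2a1 still fell, at log2 fold changes of -1.40, -1.41, -1.49, -2.74 and -1.39. In that fit the adjusted p was 0.061 to 0.86 for Elavl3, Dcx, Isl1, Fabp7, Ngfr, Snai2, Erbb3, Foxd3, Col9a3, Col11a1 and Sox13.

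**Figure D4:**
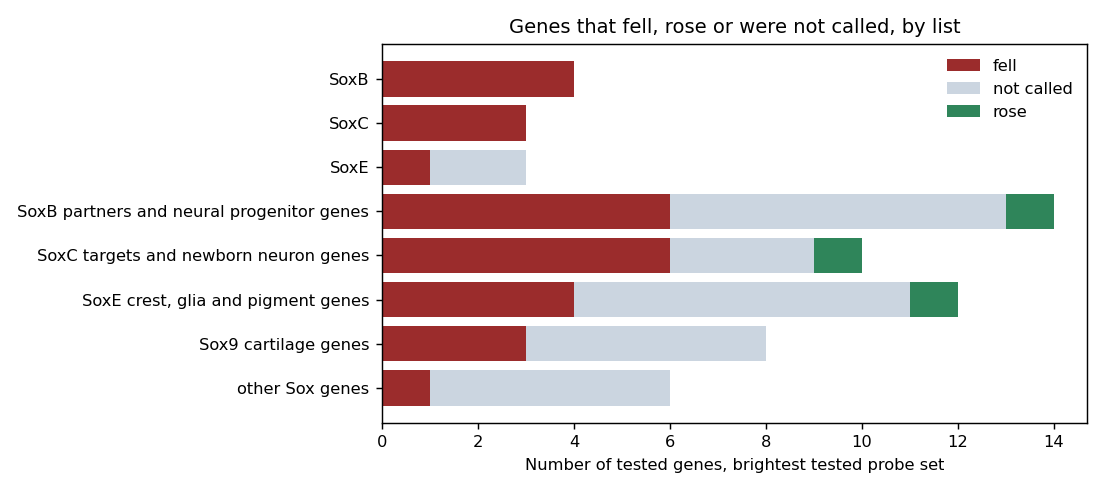
Number of tested genes (horizontal axis) that fell, rose or were not called, for the 3 Sox groups and 5 lists of related genes, each at the brightest tested probe set. SoxB and SoxC fell without exception, while 3 of 8 cartilage genes and 4 of 12 crest genes fell.

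Markers of other cell types also moved between the groups. The summed signal of 5 heart muscle markers was 15157 to 18205 in controls and 23652 to 26016 after exposure, with 4 of the 5 higher. Of the liver and yolk sac markers 2 of 5 rose, and of the epithelial markers 3 of 4, where 17.6% of all genes rose. Of 4 erythroid markers 0 were called, of 5 endothelial markers 2 fell and 1 rose, and of 5 macrophage markers 1 rose. Of 8 placental and decidual markers, 5 were on the array and 2 bright enough to be tested, and the summed signal was 5711 to 6582 in controls and 66.1 to 96.2 after exposure. In controls this sum was almost all Prl8a2, a hormone gene of the decidua, while Tpbpa, Ctsq and Ceacam11 were too dim to test. In exposed pools Prl8a2 read 39.0, 39.3 and 30.7. Psg21, the other tested marker, read 55.4, 26.8 and 65.5 there and was not called. The part of these differences, and of the spike ratio, in the lower Sox signals was not tested.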

How the data were processed

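Whole embryos of control and diabetic pregnancies were compared, 3 pools each. The deposited values are signal intensities per probe set on a linear scale, computed by the authors in GCOS with the MAS5 method, which compares matched with mismatched probes. Versions of both were not given in the sources used here. Without the lowest and highest 2%, each array averaged 500, so that the arrays had been scaled to a common mean. The median signal ran from 82.5 to 103 on the control arrays and from 74.1 to 78.9 on the exposed arrays. No detection calls were used, and the number of arrays limits the precision.

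Signals were taken to log2 as deposited. The dimmest 33.3% of probe sets by mean log2 signal (under 4.74, or a signal of 26.7) and 64 control probe sets were dropped, which left 30025 to test. The groups were set against each other in limma 3.58.1 under R 4.3.3 (lmFit, eBayes with trend), and p-values were adjusted by Benjamini-Hochberg over all of these. A gene was read at its brightest tested probe set. The procedure was tested on simulated data. The members, lists, alternatives and promoter motifs were chosen with earlier results of these data known. The rule named each member at each probe set, up to 3 genes per list in each direction, and the other tested Sox genes. Pou3f1, Pax6, Nes, Vim, Cdh2, Pou3f2, Pou3f4, Tubb3, Map2 and Tead2 were named after their values were seen. So were Ret, Mitf, Dct, Ednrb, Pax3, Twist1, Tfap2a, Tfap2b, Col9a1, Prl8a2 and Psg21. For the spike ratio, log2 ratios of 8 probe set pairs were averaged. Alternatives were other scalings, a pseudocount of 32, other filters, no trend, gene means over probe sets, no _s_at or _x_at probe sets, the spike ratio as a covariate, fits without single pools or without exposed replicates 1 and 3, a replicate block, and Welch's test, named in the methods and run here without the study's filter on detection calls. Plots came from matplotlib 3.10.9 (Python 3.11.15).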

Additional observations from a re-analysis of the deposited data

How the results depend on the processing

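Of the 17 member probe sets and 8 member genes that fell, the numbers were 6 and 5 once the spike ratio was a covariate, and 3 and 2 (Sox1 and Sox2) by Welch's t-test, which called 333 probe sets lower and 81 higher. The methods name Welch's test together with Cyber-T and required both to pass, and Cyber-T was not run here. Welch's test was also run on the probe sets tested here and not on those the study kept by detection calls. It therefore does not repeat the study's analysis. Leaving out each pool in turn gave 15 to 20 probe sets and 8 to 9 genes, and 0 of the 10 genes rose under any alternative tried. By group, the median log2 fold change of SoxB was -1.45 after median centring, -1.53 after quantile and -1.58 after loess normalization, -1.64 with a pseudocount of 32 and -1.69 with the covariate. For SoxC it was -0.60, -1.13 and -1.15 under the 3 scalings, -1.22 with probe sets averaged by gene, -1.03 with the covariate and -1.002 without exposed replicates 1 and 3. For SoxE it was -0.020 after median centring, -0.68 with the dimmer 50% left out, which removed Sox8, and -0.55 with probe sets averaged. Without single pools the medians ran from -1.78 to -1.68, from -0.97 to -0.85 and from -0.55 to -0.25. The scalings moved the median of all genes to 0.30, 0.14 and 0.080, and lower against higher probe sets to 3917 and 7456, 5240 and 6292, and 5757 and 5203, from 6550 and 4318.

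Directions turned in probe sets that were not called. After median centring Sox9 (1451538_at) stood at 0.015, Sox18 at 0.13 and Sox5 at 0.17. After quantile normalization the second Sox12 probe set stood at 0.011, Sox18 at 0.077 and Sox5 at 0.20, and after loess normalization Sox5 at 0.11. With the covariate the fifth Sox4 probe set stood at 0.51, Sox8 at 0.11, Sox7 at 0.0083, Sox6 at -0.055 and Sox18 at 0.11. Sox8 was at 0.028 without exposed replicate 1. The cause was not tested.

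Deviations from the group means correlated at r = 4.94e-05, 0.076 and 0.12 between same-numbered control and exposed pools. Between pools of different numbers r ran from -0.116 to 0.0699. With deviations taken within groups of 3 pools, these values cannot show whether the numbers pair the pools. The main fit used no replicate block. With the replicate block 18 probe sets and 8 genes fell, with SoxB at -1.75, SoxC at -0.90 and SoxE at -0.32.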
